A study of Ovis aries with 6 samples.

Results

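The respiratory chain and the ATP synthase were compared between cultured skin epidermal stem cells and cultured corneal epithelial cells of sheep. Total RNA of 3 samples of each kind, described as cell lines, was labelled with Cy3 and hybridised to single-colour Agilent sheep expression arrays, with 1 array per sample. The 6 samples carried no genetic change and received no treatment other than culture and detachment with trypsin, as far as the labels say. Breed, sex, age, passage and the number of animals behind the lines are not given in the sources used here, so a p-value here reflects variation among these 6 RNA samples alone, and some of that variation may be technical.

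Members were the gene probes whose array description names a respiratory complex enzyme, cytochrome c oxidase or ATP synthase, or whose gene name starts with NDUF, SDH, UQCR, COX and a number, or ATP5. The rule found 36 of 15008 gene probes, or 29 of 14223 gene or transcript names, 30 of the probes by description and 6 by gene name alone. Subunits of the 5 complexes accounted for 26 of these probes and 20 gene symbols. Complex I had 10 probes, complex II had 2, complex III had 1, complex IV had 3 and the ATP synthase, complex V, had 10. The other matches were COX15, an assembly factor, then 5 transcripts described only by similarity to mitochondrial proteins of distant species, and 4 probes of the vacuolar ATPase, a proton pump of acidic organelles that is not part of the respiratory chain.

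Complexes I to IV of the mitochondrial inner membrane pass electrons from NADH and succinate to oxygen, and complexes I, III and IV pump protons as they do so. The ATP synthase lets these protons flow back and makes ATP. Complex II, which also catalyses a step of the citric acid cycle, is encoded wholly in the nucleus, whereas the other complexes combine nuclear subunits with a few core subunits encoded by mitochondrial DNA.

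The array reads each gene through a probe of 60 bases. The following probe sequences, copied from the array files and written 5′ to 3′, are those of the members on which the results turn, together with the bright mitochondrially encoded members, none of which was called. Labels follow the array's annotation, and the sequence labelled ND5 may lie in another mitochondrial gene, CYTB.
SDHD: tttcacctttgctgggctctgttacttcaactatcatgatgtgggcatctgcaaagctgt
ATP5F1B: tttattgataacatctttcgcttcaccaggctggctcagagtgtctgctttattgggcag
NDUFA12: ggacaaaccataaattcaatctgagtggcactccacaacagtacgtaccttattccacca
ND1: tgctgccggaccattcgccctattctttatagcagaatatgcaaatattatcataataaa
ND2: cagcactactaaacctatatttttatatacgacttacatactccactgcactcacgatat
ND5: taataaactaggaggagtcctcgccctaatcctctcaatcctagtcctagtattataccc

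The probes of ATP5PO and ATP5PF hold AATAAA, the letters of the common polyadenylation signal, here in capitals within a short stretch of each probe.
ATP5PO: acttggagcgacAATAAAatgcttcctga
ATP5PF: cagaagtaacggAATAAAtatacatttcac
AATAAA, searched as written with matches counted once per probe, was present in 7 of 36 members (19.4%) and in 5.63% of all gene probes. On the other strand the shares were 11.1% and 3.7%. The matches among members include the ND1 and ND5 probes of mitochondrial genes printed with the first set, so a match describes the letters and does not mark a site.

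The 3 epidermal arrays had 12414, 11785 and 12401 of 15208 gene spots well above background, and the 3 corneal arrays had 11539, 11091 and 11176. No gene spot was saturated, and no member spot was an outlier. All 6 arrays came from 1 slide and 1 scan, and row 1 of the slide held only epidermal and row 2 only corneal arrays, so that position cannot be told apart from cell type. Of 10 listed epithelial markers, 5 had a probe. KRT19 and TP63 were well above background on 0 arrays, KRT14 on 2 epidermal and 0 corneal arrays, and KRT15 on 3 epidermal and 1 corneal array (change -0.14, not called). PAX6, a transcription factor of the eye, was well above background on all 6 arrays and rose by 0.31 (limma, adjusted p = 0.0128). The summed linear level of these markers was 0.182 to 0.196 times the array's 75th percentile in epidermal cells and 0.207 to 0.241 times in corneal cells. Of 11 listed fibroblast markers, 9 were measured. In corneal cells 5 fell and 1 rose, against 32.9% and 26.7% of all tested probes, while VIM, COL1A2 and DCN did not pass the test. POSTN, 1 of the 5 that fell, was well above background on 0 corneal arrays and passed the filter through epidermal arrays alone. The summed linear level of the 9 was 966 to 1200 times the array's 75th percentile in epidermal cells and 934 to 958 times in corneal cells. Of 4 listed corneal endothelium markers only ATP1B1 had a probe, and of 5 listed muscle markers only DES. ATP1B1, at the brighter of its 2 probes, rose by 0.82 in corneal cells (limma, adjusted p = 7.56e-06). DES rose by 1.21 (limma, adjusted p = 0.000163). Cell type names used here follow the sample labels. The part of these markers in the results was not tested.

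Values are the log2 processed signal minus the 75th percentile of the same array, called normalized log2 signal here, and a change is the corneal mean minus the epidermal mean. Each probe was tested with limma over the 11742 probes with signal well above background on 3 or more arrays, and a probe was called where its Benjamini-Hochberg adjusted p was under 0.05. Of all tested probes, 26.7% were called higher and 32.9% lower in corneal cells, 59.6% in all. A level is relative to the array's other RNA, and fewer cells of a type and less RNA per cell cannot be told apart in such bulk samples. Levels of different probes are not comparable with each other.

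Most subunits differed little between the cell types. Of the 26 subunit probes, all tested, 8 fell (30.8%) and 3 rose (11.5%) in corneal cells, and 15 were not called. By probe, the share that fell is near the background of 32.9%, and the share that rose lies under the background of 26.7%. Several of the falls were probes of the same gene. With 1 probe per gene, 4 of 20 subunit genes fell and 2 rose. Among all 11241 genes tested that way, 3668 fell and 2992 rose. The median change was -0.013 on the log2 scale, against -0.045 over all tested probes. A change smaller than 0.3 in size was found for 23 of 26 subunit probes (88.5%), against 58.2% of all tested probes, and the median size was 0.106 against 0.244. These comparisons describe the set, do not allow for the brightness of its probes and were not tested.

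Falls, where they occurred, were found among nuclear subunits of complexes I, II and V. All 8 falls and all 3 rises were among the 22 nuclear subunit probes, and none of the 4 probes annotated to mitochondrially encoded subunits was called. Some alternatives did call them: ND1 (adjusted p = 0.0229) and the brighter ND5 probe (adjusted p = 0.014) were higher with normexp background correction, ND2 was higher with median centring (adjusted p = 0.0173), in the authors' deposited table (adjusted p = 0.0475) and without epidermal replicate 2 (adjusted p = 0.0491), and the dimmer ND5 probe was lower without epidermal replicate 2 (adjusted p = 0.0479; limma in each case). Whether nuclear and mitochondrial subunits differ was not tested. Of the 26 subunit probes, 11 were lower and 6 were higher on every corneal array than on any epidermal array, and 9 overlapped. Among all tested probes, 37.2% were lower and 30.4% higher on every corneal array. Subunit probes were bright, with 17 of 26 in the brightest of 4 equal bins by mean level, and the median SD over 3 arrays was 0.042 in epidermal and 0.038 in corneal cells. Of all tested probes in that brightest bin, 36.9% fell and 33% rose. Sizes of change were not compared within bins.

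**Figure D1:**
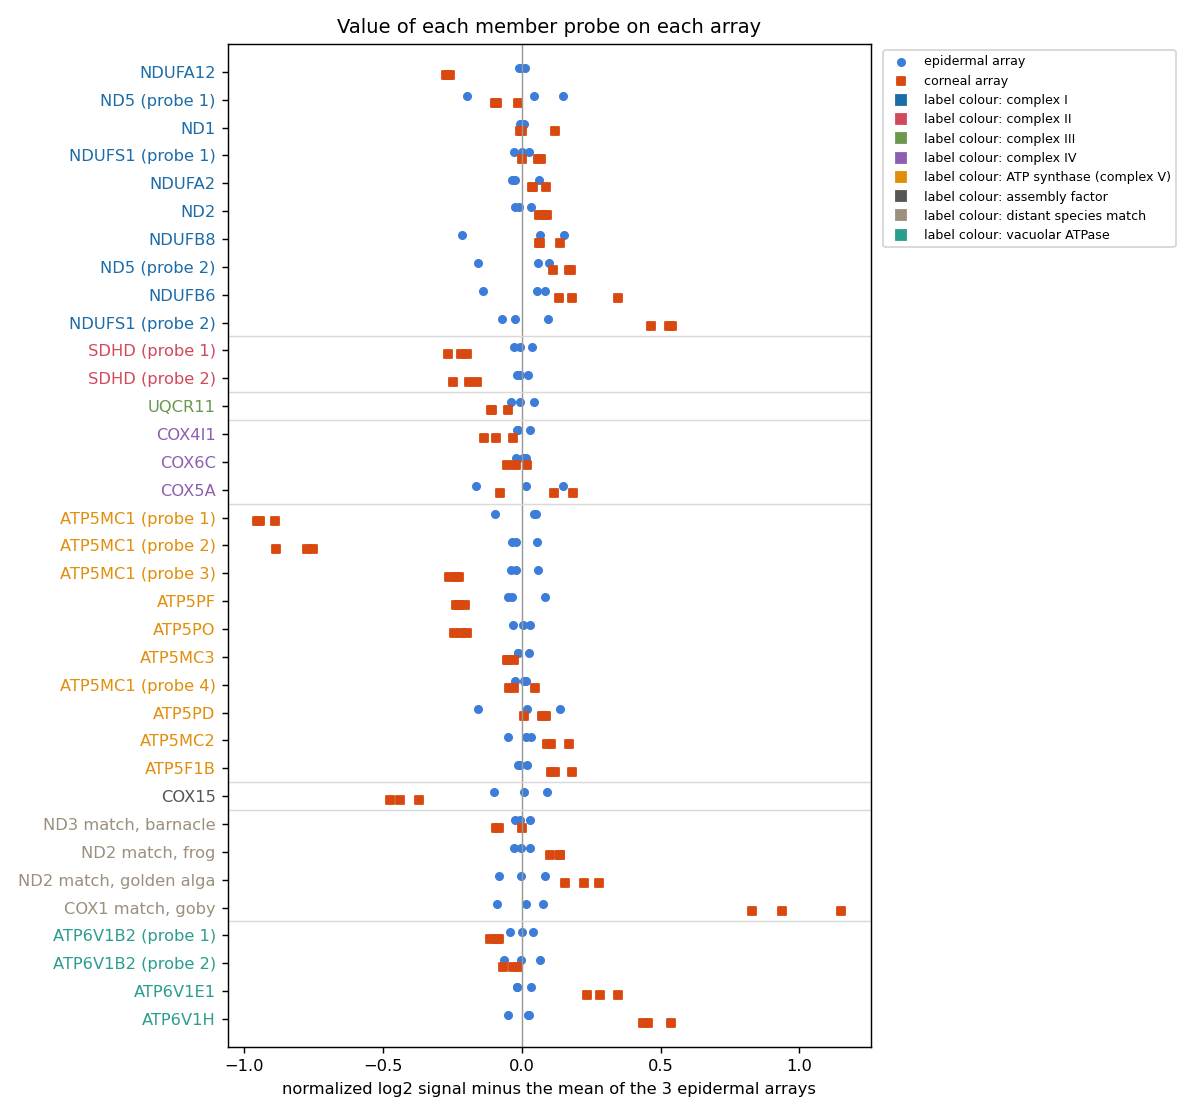
Normalized log2 signal of each tested member probe on each array, relative to the mean of the 3 epidermal arrays (horizontal axis), with epidermal arrays as circles and corneal arrays as squares. Label colours give the complex, and numbers tell apart probes of the same gene. The corneal arrays of SDHD, ATP5PO, ATP5PF and NDUFA12 lie left of every epidermal array, and those of ATP5F1B lie right. The 2 overlapping probes of ATP5MC1, whose strand was not checked, show the largest falls of any subunit probe.

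Complex I takes electrons from NADH. Of its 10 probes, 1 fell, 1 rose and 8 were not called, with a median change of 0.067. Among all tested probes, 32.9% fell and 26.7% rose. NDUFA12, an accessory subunit, read 3.94, 3.93 and 3.92 on epidermal arrays and 3.66, 3.67 and 3.66 on corneal arrays, in units of normalized log2 signal. All 3 corneal arrays were below all 3 epidermal arrays, and the gap was many times the spread within either group. The change was -0.26 ± 0.026 (SE, n = 3 per group; limma, adjusted p = 0.000397), so the linear corneal level was 83.3% of the epidermal level.

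NDUFS1 encodes the large iron-sulfur subunit through which electrons pass inside complex I, and its 2 probes gave different results. One read -2.0, -2.12 and -2.16 on epidermal and -1.56, -1.55 and -1.63 on corneal arrays, higher on every corneal array. Its change was 0.51 ± 0.053 (SE, n = 3 per group; limma, adjusted p = 0.000495), or 143% of the epidermal level. With normexp background correction that change was 0.37, still called. The other NDUFS1 probe was brighter and read 2.52, 2.57 and 2.54 on epidermal and 2.61, 2.60 and 2.54 on corneal arrays. It changed by 0.042 (limma, adjusted p = 0.314) and its groups overlapped. Which of the 2 reports the gene's transcript level is not settled by these values.

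Further nuclear subunits of complex I were accessory ones and were not called. NDUFA2 changed by 0.054 and NDUFB8 by 0.088, and both had overlapping groups. NDUFB6 changed by 0.22 (limma, adjusted p = 0.0676), with every corneal array above every epidermal one. NDUFB8 read from -3.43 to -3.06 and NDUFB6 from -4.13 to -3.91 on epidermal arrays. The epidermal SD was 0.19 and 0.12 for these dim probes, above the median of 0.042 over subunit probes.

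The mitochondrially encoded ND subunits form the proton-pumping membrane arm of complex I. ND1 read 6.70, 6.71 and 6.69 on epidermal arrays and 6.82, 6.70 and 6.69 on corneal arrays, so that 1 corneal array stood above the rest and the other two lay at the epidermal level. ND2 read 5.33, 5.38 and 5.32 on epidermal and 5.41, 5.43 and 5.42 on corneal arrays, higher on every corneal array by a small margin. The change was 0.039 for ND1 (limma, adjusted p = 0.463) and 0.079 for ND2 (limma, adjusted p = 0.0668).

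The 2 probes annotated to ND5 differed in the sign of the change. The brighter of them read 7.87, 8.08 and 8.12 on epidermal and 8.13, 8.20 and 8.19 on corneal arrays, a change of 0.15 (limma, adjusted p = 0.121) without overlap. The other read -2.65, -3.00 and -2.76 on epidermal and -2.82, -2.90 and -2.89 on corneal arrays, a change of -0.066 (limma, adjusted p = 0.565) with overlap. The brighter probe begins at base 2826 of its assembled transcript. Whether its letters, printed with the first set, lie in ND5 or in CYTB, a complex III gene that RefSeq's gene table of the assembly ARS-UI_Ramb_v3.0 lists near ND5, was not settled here. It is counted under complex I by its annotation alone, and the 2 probes may read different genes.

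Complex II, succinate dehydrogenase, was represented only by SDHD, the small membrane subunit that helps anchor the enzyme and bind ubiquinone, and both of its probes fell. The first read 1.37, 1.41 and 1.34 on epidermal arrays and 1.11, 1.18 and 1.15 on corneal arrays. The second read 3.37, 3.33 and 3.34 on epidermal and 3.18, 3.15 and 3.10 on corneal arrays. Each probe was lower on every corneal array, without overlap. Among all tested probes, 32.9% fell and 37.2% were lower on every corneal array.

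The changes were -0.23 ± 0.034 (SE, n = 3 per group; limma, adjusted p = 0.00229) and -0.20 ± 0.035 (SE, n = 3 per group; limma, adjusted p = 0.00407). The linear corneal levels were 85.5% and 87.1% of the epidermal ones. The sequence printed for SDHD is that of the first probe, whose accession RefSeq's gene table pairs with a locus other than SDHD. Signal from near-identical copies cannot be told apart from that of SDHD itself, so the 2 probes are not counted as separate evidence on 1 gene.

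Complex III passes electrons from ubiquinol to cytochrome c and had 1 probe by annotation. UQCR11, a small accessory subunit, read 4.46, 4.41 and 4.38 on epidermal arrays and 4.37, 4.31 and 4.31 on corneal arrays. Every corneal array was lower, though the nearest arrays of the 2 groups nearly met. The change was -0.088 (limma, adjusted p = 0.0822) and was not called.

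Complex IV, cytochrome c oxidase, reduces oxygen to water, and none of its 3 nuclear subunits was called. COX4I1, the ubiquitous form of the regulatory subunit, changed by -0.086 (limma, adjusted p = 0.102) and was lower on every corneal array. COX6C changed by -0.019 (limma, adjusted p = 0.637). COX5A changed by 0.074 (limma, adjusted p = 0.569) with an epidermal SD of 0.16, the highest among these 3 probes.

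Of the 10 probes of the ATP synthase, 5 fell, 2 rose and 3 were not called, with a median change of -0.13. Of all tested probes, 32.9% fell and 26.7% rose. Since 3 of the 5 falls were probes of ATP5MC1, the count with 1 probe per gene was 2 lower and 2 higher of 7. The peripheral stalk holds the catalytic head still while the rotor turns. Its subunits ATP5PO and ATP5PF fell, while ATP5PD, read by a probe of the opposite strand, was not called. ATP5PO, the stalk subunit that sits on top of the head, read 4.48, 4.45 and 4.51 on epidermal and 4.28, 4.26 and 4.23 on corneal arrays. ATP5PF, a small stalk subunit, read 4.14, 4.27 and 4.15 on epidermal and 3.96, 3.95 and 3.98 on corneal arrays. In each the corneal arrays lay together below every epidermal array, and for ATP5PF epidermal replicate 2 stood above the rest.

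ATP5PO changed by -0.22 ± 0.032 (SE, n = 3 per group; limma, adjusted p = 0.00193), to 85.9% of the epidermal level. The change of ATP5PF was -0.22 ± 0.044 (SE, n = 3 per group; limma, adjusted p = 0.00701), to 85.7%. ATP5PD, another stalk subunit, changed by 0.056 (limma, adjusted p = 0.57) with overlapping groups. Its probe was dim and carries the transcript's letters on the opposite strand, as its start codon in capitals shows on the array (as CAT) and in the reverse complement (as ATG). Its value is therefore not taken as a measure of ATP5PD messenger RNA, though the probe stays in the counts and medians, which follow the rule.
ATP5PD on the array: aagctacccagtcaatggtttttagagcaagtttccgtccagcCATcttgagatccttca
ATP5PD reverse complement: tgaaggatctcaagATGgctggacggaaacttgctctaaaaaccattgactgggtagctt

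ATP5F1B, the catalytic beta subunit of the head, moved the other way. It read 1.65, 1.65 and 1.68 on epidermal and 1.76, 1.78 and 1.84 on corneal arrays, higher on every corneal array. The change was 0.14 ± 0.033 (SE, n = 3 per group; limma, adjusted p = 0.0139), or 110% of the epidermal level. Without scaling of the arrays it was -0.034 and not called, so its direction depends on the scale.

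Differences between probes on the same array do not depend on that scale. The log2 ratio of ATP5PO to ATP5F1B was 2.83, 2.80 and 2.83 on epidermal and 2.52, 2.48 and 2.40 on corneal arrays, a change of -0.36. The ratio fell on every corneal array by more than the spread within either group. The same change was -0.36 for ATP5PF over ATP5F1B, -0.36 for SDHD (first probe) over ATP5F1B and -0.40 for NDUFA12 over ATP5F1B. Between the stalk subunits, ATP5PO over ATP5PF, it was 0.0028, under the epidermal SD of 0.10. These ratios show unequal change between probes and do not show which of a pair changed.

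ATP5MC1, ATP5MC2 and ATP5MC3 are separate genes for the c subunit, which forms the proton-driven ring of the rotor. They make the same mature protein from different precursors. The bright ATP5MC1 probe that was called read 5.14, 5.24 and 5.16 on epidermal and 4.95, 4.92 and 4.95 on corneal arrays, lower on every corneal array. Its change was -0.24 ± 0.036 (SE, n = 3 per group; limma, adjusted p = 0.00226), to 84.6% of the epidermal level. Another bright ATP5MC1 probe read 5.74, 5.78 and 5.78 on epidermal and 5.82, 5.72 and 5.74 on corneal arrays, with overlap and a change of -0.0081 (limma, adjusted p = 0.862).

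The largest falls of any subunit probe were those of 2 dim ATP5MC1 probes that overlap by 59 of 60 bases and so read nearly the same target. The strand of both could not be checked here, so whether they read ATP5MC1 messenger RNA was not settled. They read -2.40, -2.54 and -2.39, and -2.35, -2.44 and -2.42, on epidermal arrays. On corneal arrays they read -3.39, -3.33 and -3.38, and -3.29, -3.17 and -3.15. Both stood lower on every corneal array by far more than the spread within groups. The changes were -0.93 ± 0.05 and -0.80 ± 0.049 (SE, n = 3 per group; limma, adjusted p = 3.97e-05 and 6.31e-05), to 52.6% and 57.3% of the epidermal level. With another background correction (normexp) they were -0.55 and -0.41, still called. The 4 probes of ATP5MC1 therefore gave changes from -0.93 to -0.0081, and the gene has no single value here.

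ATP5MC2 read 6.05, 6.11 and 6.13 on epidermal and 6.27, 6.19 and 6.20 on corneal arrays, higher on every corneal array. Its change was 0.12 ± 0.039 (SE, n = 3 per group; limma, adjusted p = 0.0362), and it lost its call without any 1 of the 6 arrays (adjusted p from 0.0538 to 0.1) and under 7 other settings, among them quantile normalization with a change of 0.027. ATP5MC3 changed by -0.043 (limma, adjusted p = 0.237), with its corneal arrays just below the epidermal ones.

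**Figure D2:**
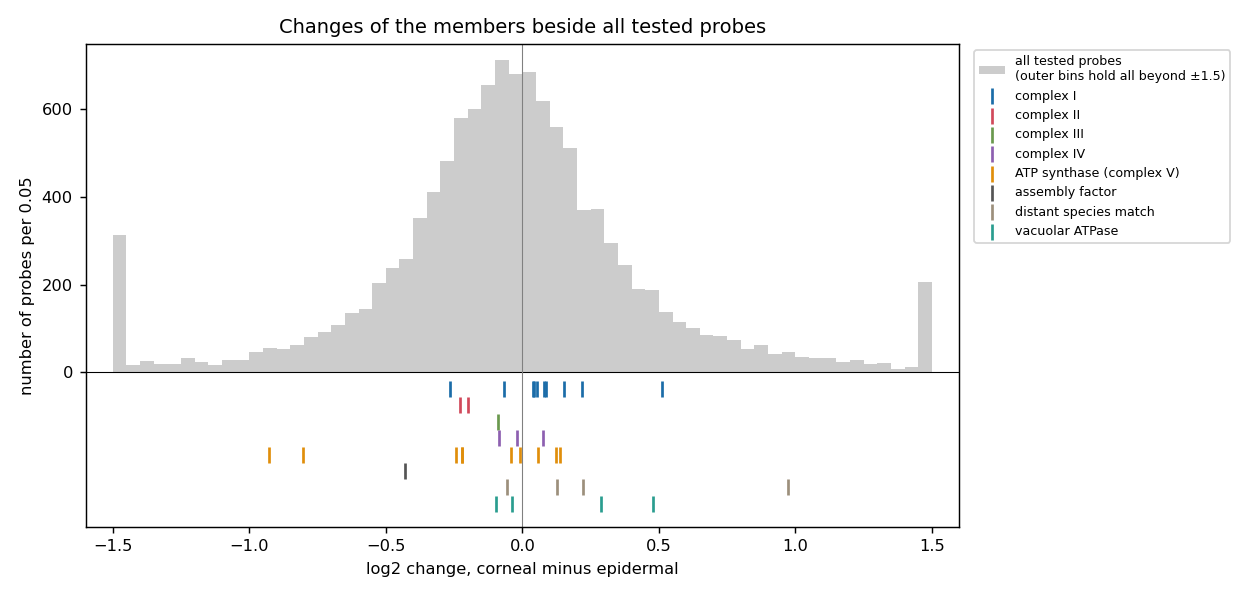
Histogram of the log2 change, corneal minus epidermal (horizontal axis), over all 11742 tested probes, with the number of probes per bin on the vertical axis, and a tick for each member probe in rows by complex. Most subunit ticks lie within 0.3 of 0, and complex V holds both the largest falls and small rises.

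COX15, an assembly factor that makes the heme A of cytochrome c oxidase, read -2.82, -2.90 and -3.01 on epidermal and -3.28, -3.39 and -3.35 on corneal arrays. Every corneal array was lower. The change was -0.43 ± 0.059 (SE, n = 3 per group; limma, adjusted p = 0.00162), to 74.3% of the epidermal level, and -0.21 after normexp background correction. It was the only one of 44 listed assembly factors with a probe matched by name.

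The remaining matches were read apart from the complexes. The transcript described as similar to a goby COX1, the catalytic subunit of cytochrome c oxidase, rose by 0.97 ± 0.093 (SE, n = 3 per group; limma, adjusted p = 0.000369), from between -2.88 and -2.72 on epidermal arrays to between -1.96 and -1.64 on corneal arrays. Its probe was dim, and with normexp background correction its rise was 0.61, still called. Transcripts similar to a frog and a golden alga ND2 rose by 0.13 and 0.22 (limma, adjusted p = 0.0148 and 0.0175), one similar to a barnacle ND3 changed by -0.057 and was not called, and one similar to a sugar glider ND1 was not well above background on any array and was not tested. Such annotations rest on similarity to distant species, and the sheep genes behind them were not identified here. The frog match lost its call without corneal replicate 1 or 2, with the replicate number as a block (adjusted p = 0.0546) and without scaling (change -0.045). The golden alga match lost its call without corneal replicate 2 or 3 and without scaling (change 0.050).

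Of the vacuolar ATPase, which acidifies lysosomes and endosomes by spending ATP, 2 of 4 probes rose, against 26.7% of all tested probes. ATP6V1H, a regulatory subunit of its catalytic sector, read 1.95, 1.95 and 1.88 on epidermal and 2.47, 2.37 and 2.38 on corneal arrays, a change of 0.48 ± 0.042 (SE, n = 3 per group; limma, adjusted p = 0.000271). ATP6V1E1, a stalk subunit, rose by 0.29 ± 0.04 (SE, n = 3 per group; limma, adjusted p = 0.00159), and by 0.12 without scaling of the arrays, where it was not called (adjusted p = 0.195). The 2 probes of ATP6V1B2 changed by -0.096 and -0.039 and were not called (limma, adjusted p = 0.0523 and 0.47).

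Genes of 3 lists from neighbouring pathways were also read; 8 of 10 tested carrier and citric acid cycle genes rose, and both tested biogenesis genes fell. Of 33 listed electron carriers and exchange proteins, 9 had a probe and 7 were tested, of which 5 rose and 0 fell, with a median change of 0.22. Among all tested probes 26.7% rose and 32.9% fell, with a median of -0.045. SLC25A4, an ADP/ATP carrier of the inner membrane, rose by 0.36 ± 0.031 (SE, n = 3 per group; limma, adjusted p = 0.000238), and COQ5, a methyltransferase of ubiquinone synthesis, rose by 0.31 ± 0.04 (SE, n = 3 per group; limma, adjusted p = 0.00127). COQ6, SLC25A5 and SLC25A11 rose by 0.24, 0.22 and 0.20, while VDAC1, the main channel of the outer membrane, changed by 0.026 and was not called. UCP1, the uncoupling protein of brown fat, read -5.62, -6.54 and -6.07 on epidermal and -7.11, -6.79 and -8.39 on corneal arrays, where it was not well above background on any. UCP1 passed the filter through its epidermal arrays alone, so its test was not taken as evidence of a fall. The mean epidermal level was 1.18-fold above a reference, the mean over corneal arrays of the lowest signal well above background. That reference was -6.32, and epidermal replicate 2 lay under it. UCP1 was not called (fitted change -1.35, limma, adjusted p = 0.051). It was called lower without scaling (adjusted p = 0.0234), with normexp (adjusted p = 0.0377), with normexp after spots of extreme local background were left out (adjusted p = 0.0374) and without corneal replicate 2 (adjusted p = 0.0361; limma in each case), so the count of 0 falls depends on the setting.

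The citric acid cycle, which feeds NADH and succinate to complexes I and II, had 3 measured genes of 26 listed, and all 3 rose, against 26.7% of all tested probes. OGDH, a subunit of the 2-oxoglutarate dehydrogenase complex, rose by 0.33 ± 0.053 (SE, n = 3 per group; limma, adjusted p = 0.00285), and MDH2, mitochondrial malate dehydrogenase, by 0.15 ± 0.03 (SE, n = 3 per group; limma, adjusted p = 0.00642), with its 4 probes changing by 0.12 to 0.71. IDH3A rose by 0.15. Of 34 listed genes of biogenesis and upkeep, 3 had a probe and 2 were tested, and both of these fell, against 32.9% of all tested probes: GABPA with a change of -0.21 ± 0.028 (SE, n = 3 per group; limma, adjusted p = 0.00153) and NRF1, read by a dim probe, with one of -0.73 ± 0.21 (SE, n = 3 per group; limma, adjusted p = 0.0272). The other NRF1 probe changed by -0.49 ± 0.08 (SE, n = 3 per group; limma, adjusted p = 0.00308), and the first by only -0.096 with normexp background correction (adjusted p = 0.307). Both encode transcription factors known for activating nuclear genes of the respiratory chain. Without scaling of the arrays, no gene of the carrier or citric acid cycle lists was called higher, and GABPA and NRF1 were still called lower. Calls of the weakest genes were also lost elsewhere, for NRF1 under 8 of 15 alternatives (each epidermal array left out among them), for SLC25A11 under 10 of 16 and for IDH3A under 6 of 16.

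**Figure D3:**
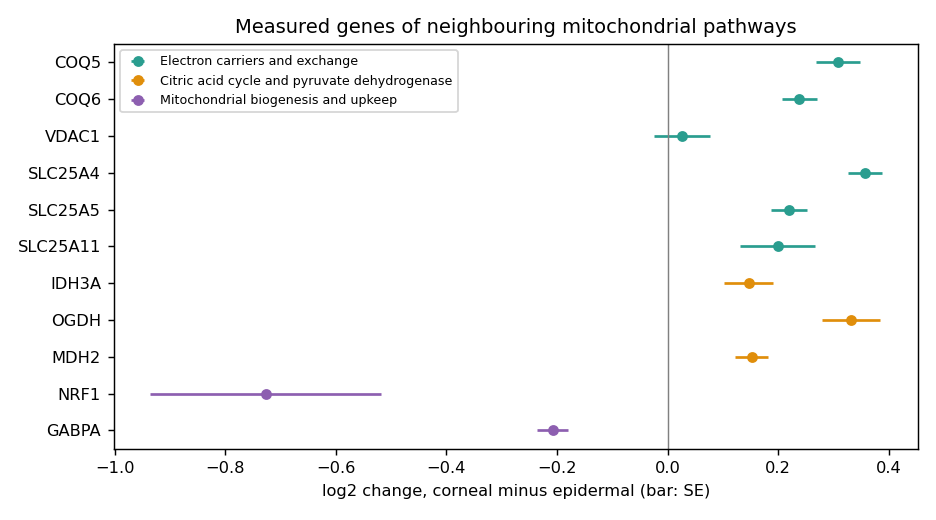
Log2 change, corneal minus epidermal (horizontal axis), with its standard error as a bar, for the tested genes of the electron carrier, citric acid cycle and biogenesis lists, shown where at least 1 array of each group was well above background. UCP1, with a fitted change of -1.35 but not well above background on any corneal array, is not plotted. The plotted carrier and citric acid cycle genes lie right of 0, and NRF1 and GABPA lie left of it.

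The choice of scale moved all values together. The median change over all tested probes was -0.045 with 75th percentile scaling and -0.22 without scaling, and calls that were higher made up 44.8% of all calls with scaling and 22.5% without. The falls of NDUFA12, SDHD, ATP5PO, ATP5PF, COX15 and the 3 called ATP5MC1 probes kept their direction and their call under every alternative in which the probe was tested, including the authors' deposited log2 values. The rise of the NDUFS1 probe did so too, whereas the rises of ATP5F1B and ATP5MC2 did not.

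**Figure D4:**
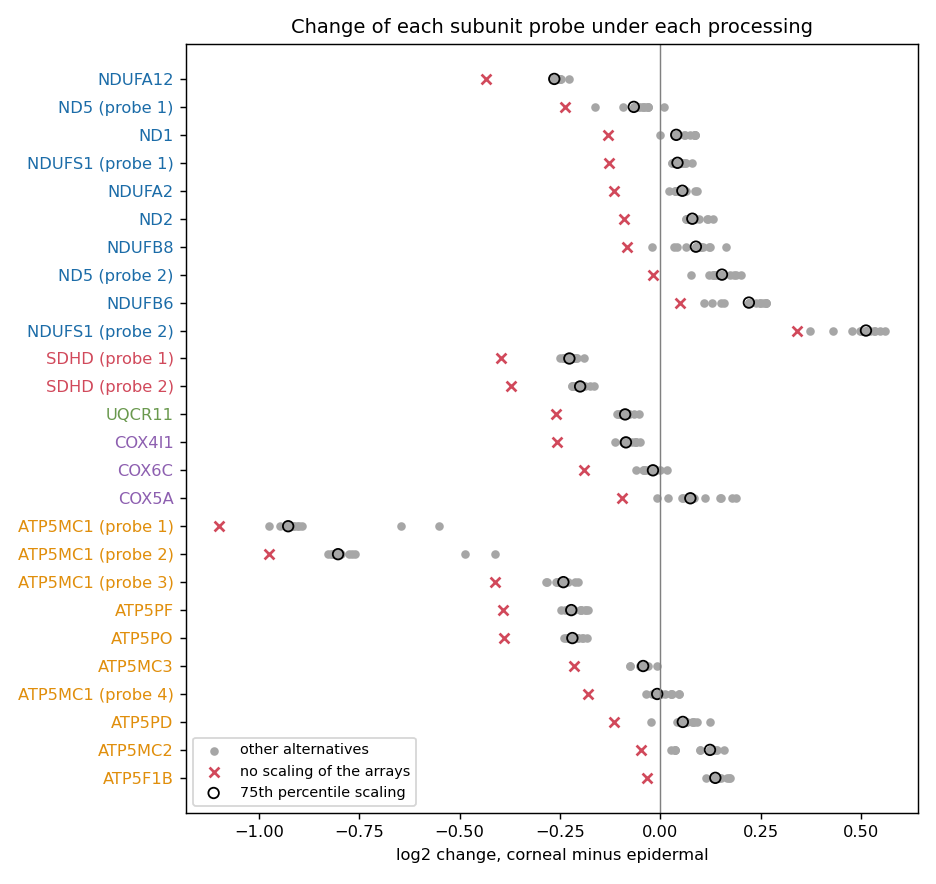
Log2 change, corneal minus epidermal (horizontal axis), of each subunit probe under each processing, with 75th percentile scaling as open circles, no scaling as crosses and the other alternatives as grey points. Without scaling every probe lies further left, NDUFA12, SDHD, ATP5PO and ATP5PF lie left of 0 under every processing, and ATP5F1B lies right of 0 except without scaling.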

How the data were processed

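Per the submitters' processing notes, the scans were read with Agilent Feature Extraction 10.7. Per the file headers, the deposited processed intensity was background-subtracted and detrended within each array, and no scaling between arrays is recorded. The authors also deposited a log2 table for these arrays; how it was made was not stated in the sources used here. Its columns shared a median of 7.23 (15008 probes) and correlated with log2 of the scanner signal of the same array at 0.999 to 1 after rounding, and it served as an alternative.

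Here control spots and outlier spots were left out, the 75th percentile of the array was subtracted from log2 signal, spots of the same probe were averaged, and probes well above background on at least 3 of 6 arrays were kept (11742). limma 3.58.1 in R 4.3.3 compared 3 corneal with 3 epidermal arrays without a replicate block, with Benjamini-Hochberg adjustment over all kept probes, after the script was tested on simulated data. The number of arrays limits the precision. Names came from the arrays' annotation, matched to RefSeq's gene table (761 probes by accession, 523 by symbol, 14 by synonym, 58 by hand from descriptions; 13652 were not matched). Same-numbered arrays of the 2 groups did not deviate together (correlations of -0.025, -0.11 and 0.036 over 10736 probes), so the numbers were not taken as pairs. Values on every array were given for ATP5PO, ATP5F1B, ATP5PF and SDHD, for up to 3 called rises and 3 called falls per complex, and for members whose probes differed in sign; others served as examples. The members, lists and tests were chosen with earlier results of these data known. Other settings tried were scalings, background corrections, filters, 1 probe per gene, a replicate block and leaving out each array.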

Additional observations from a re-analysis of the deposited data

How the results depend on the processing

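Alternatives changed the scaling, background correction, filter, probe choice and block, or left out 1 array. Of the member values recomputed, 482 kept their direction and side of the threshold, 27 gained a call, 19 lost one and 24 changed sign. The 9 members called lower stayed called lower under every alternative other than 1 probe per gene, which tests fewer probes and left 5 lower. Complex I then had 0 higher, complex II 1 lower and complex V 2 lower.

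Without scaling, 1534 of all probes were higher, and of the members 3 were higher and 14 lower: complexes III and IV had 1 lower each, complex V had 0 higher, and the distant matches and the vacuolar ATPase each had 1 higher and 1 lower. Signs then turned for NDUFA2 (-0.12), NDUFB8 (-0.083), NDUFS1 (-0.13, uncalled probe), ND1 (-0.13), ND2 (-0.092), ND5 (-0.018), COX5A (-0.097), ATP5F1B (-0.034), ATP5PD (-0.12), ATP5MC2 (-0.048) and the frog ND2 match (-0.045). COX6C turned to 0.017 with median centring. The uncalled ATP5MC1 probe turned to 0.026 with quantile normalization, 0.027 with median centring, 0.047 with normexp, 0.047 without extreme local background and 0.030 in the deposited table.

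Complex I had 2 higher with quantile normalization, 3 with median centring or the deposited table, and 4 with either normexp. Complex III had 1 lower with quantile normalization, either normexp and the deposited table, and complex IV had 1 lower with either normexp. Complex V had 1 higher under quantile normalization, either normexp, the deposited table, no filter and the replicate block. The vacuolar ATPase had 1 lower with all 6 arrays above background. With the replicate number as a block, 6 members were higher and 9 lower, and 2771 and 3452 of all probes.

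Leaving out 1 array gave 5 to 8 members higher, the lowest without corneal replicate 2. Complex I then had 1 to 2 higher and 1 to 2 lower, complex V had 1 higher each time, the distant matches 1 to 3 higher and the vacuolar ATPase 0 to 1 lower. Changes ranged from -0.020 to 0.16 for NDUFB8, -0.0015 to 0.062 for ND1, -0.16 to 0.0088 for the dimmer ND5 probe, -0.0084 to 0.15 for COX5A, -0.023 to 0.12 for ATP5PD and -0.036 to 0.010 for the uncalled ATP5MC1 probe. None of these was called with all arrays. Signal over background limits the dim probes. Among subunits these include NDUFB6, NDUFB8, COX5A, the dimmer ND5 probe, the called NDUFS1 probe and the 2 overlapping ATP5MC1 probes. COX15 and the goby COX1 match were dim too.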
